A study of Rattus norvegicus with 8 samples.

Results

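Class II molecules of the rat major histocompatibility complex (RT1) present peptides from the lysosomal pathway to CD4+ T cells. The genes described here are 8 members of that pathway, taken by name from a fixed list: the chains of RT1-D (*RT1-Da* and *RT1-Db1*) and of RT1-B (*RT1-Ba* and *RT1-Bb*), the invariant chain *Cd74*, the peptide editors *RT1-DMa* and *RT1-DMb*, and the transactivator *Ciita*. All 8 were found among the 15159 genes that the array probes could be matched to, and each was represented by its brightest probe.

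Hypothalamic RNA came from male F344 rats (F344N in the labels) held in short days (SD), 4 injected into the third ventricle with all-trans retinoic acid (RA) and 4 with vehicle, and was taken the next day. RA is the active derivative of vitamin A, and the comparison asks which hypothalamic genes differ in level after it is given to the brain. The labels give RA at 1e-05 M and saline as vehicle, whereas the paper's methods give a higher concentration and a vehicle that also held DMSO. RNA of an RA rat and of a vehicle rat was hybridised together in Cy3 and Cy5 to each of 8 arrays on 1 slide, with RA in Cy5 on arrays 1, 3, 6 and 8 and in Cy3 on arrays 2, 4, 5 and 7. The first slide row held arrays 1 to 4, and the second held arrays 5 to 8. The labels do not say which arrays share RNA, so the p values measure the spread between these arrays. The share of probes well above background was 57.4% to 74.6% for RA and 61.2% to 74.5% for vehicle. The tissue label was checked on 11 hypothalamic neuropeptide genes, which were all well above background on all 8 arrays.

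Class II chains are made in the endoplasmic reticulum, where an alpha and a beta chain pair around the invariant chain. The invariant chain blocks the peptide groove and guides the complex to the endosomal pathway, where proteases trim it to a short remnant. RT1-DM then exchanges that remnant for an antigen peptide, and the loaded molecule moves to the cell surface. In the brain, class II is known mainly from activated microglia and from macrophages of the meninges, choroid plexus and vessel walls. Transcription of the chains, *Cd74* and the editors needs CIITA, which binds no DNA itself and is recruited by the proteins bound to the X and Y boxes of their promoters.

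The X and Y boxes are shown for these genes because they are the shared feature through which the class II genes are known to be controlled together. RefSeq promoter sequences of GRCr8, from 250 bases before to 50 bases after the gene start, were held for 6 of the 8 members, and those of *Ciita* and *RT1-DMb* were not used here. The motifs were searched on both strands as X box core (ACNGATG) and Y box core (ATTGG), the latter also as part of the longer Y box CTGATTGG. In the stretches below, 5′ to 3′ on the strand of the gene, capitals mark the X box core and, after it, the Y box core. *RT1-Ba*, printed last, matched the Y box core, within the longer Y box, but not the X box core. X boxes with other letters were not searched for.
RT1-Da, chr20:4515324-4515380, plus strand: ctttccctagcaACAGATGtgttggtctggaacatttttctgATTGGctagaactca
RT1-Db1, chr20:4560228-4560283, minus strand: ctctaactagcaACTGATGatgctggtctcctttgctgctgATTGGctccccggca
RT1-Bb, chr20:4604165-4604220, minus strand: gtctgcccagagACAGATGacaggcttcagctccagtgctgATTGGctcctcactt
RT1-DMa, chr20:4712385-4712441, minus strand: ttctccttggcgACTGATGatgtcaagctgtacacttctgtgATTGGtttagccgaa
RT1-Ba, chr20:4576972-4577028, plus strand: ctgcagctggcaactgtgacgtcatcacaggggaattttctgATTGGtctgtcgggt

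The X box core was followed on the same strand by the Y box core, 18 to 28 bases further on, in the promoters of *RT1-Da*, *RT1-Db1*, *RT1-Bb* and *RT1-DMa*. Between the cores lay 23, 22, 22 and 23 bases, and the X box core began 79, 109, 90 and 94 bases before the gene start. This arrangement was found in 28 of 33469 promoters of the same length (0.0837%). The Y box CTGATTGG alone was found in 3.50% of promoters and in 4 of the 6 member promoters (*RT1-Da*, *RT1-Db1*, *RT1-Ba* and *RT1-Bb*). The Y box core was found in 37.5% of promoters and in all 6, including *Cd74*, where it lay on the opposite strand. A DR5 retinoic acid response element, the direct repeat bound by RA receptors, matched 0.382% of promoters and none of the 6. These matches describe the reference sequence of another strain and do not show binding.

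Class II transcripts were higher after RA. The chains *RT1-Da*, *RT1-Db1* and *RT1-Bb* and the editors *RT1-DMa* and *RT1-DMb* rose at an unadjusted p under 0.01 in limma. That is the threshold by which the methods counted genes for pathways. The p used here is the largest over 24 ways of pairing the arrays, unlike the single fit of the methods. *Cd74* and *Ciita* missed the threshold, and *RT1-Ba* was not well above background. These are 5 of 7 measured members higher and 0 lower, where 3.52% of all genes passed as higher and 0.792% as lower. The median log2 fold change of the 7 was 1.07, beside -0.0047 for all genes. No probe reached an adjusted p under 0.05 (0 of 30367 in limma, against 3292 at an unadjusted p under 0.05), so these calls do not pass a correction over all probes in this fit. In whole tissue, more cells of a type and more RNA per cell cannot be told apart.

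**Figure D1:**
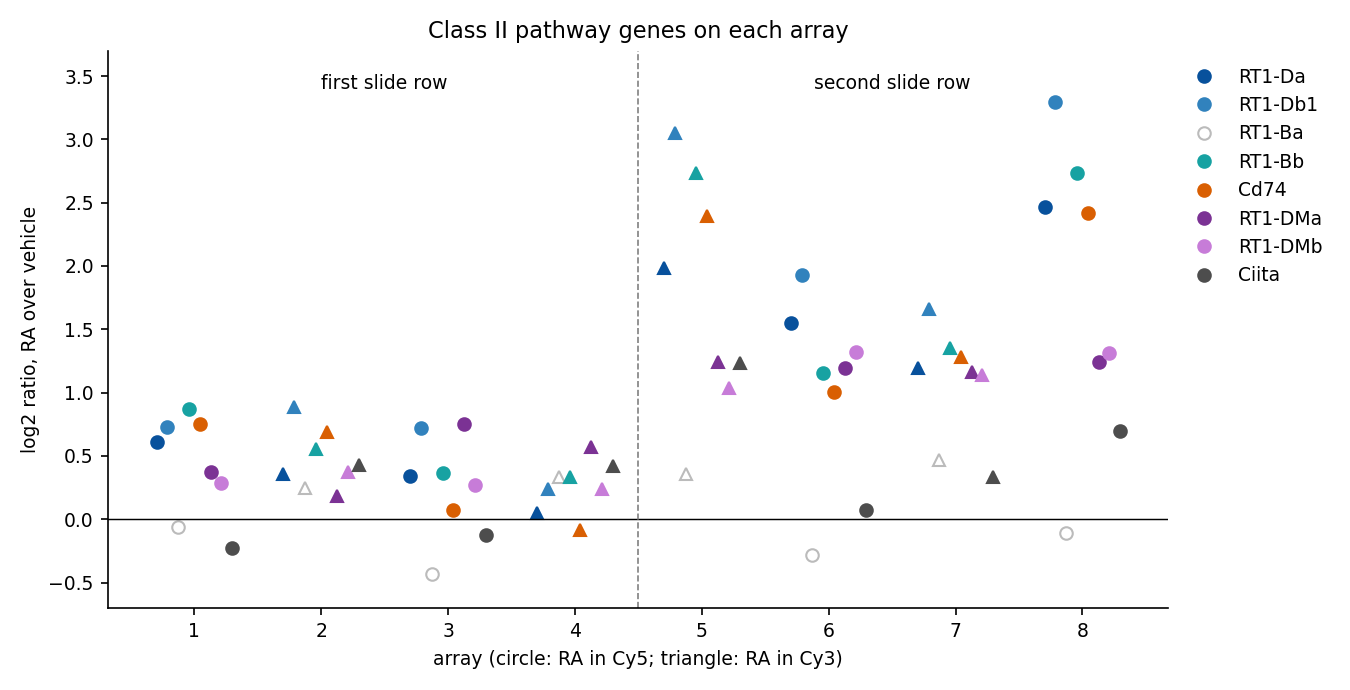
Log2 ratio of RA over vehicle (y) for each of the 8 members on each array (x), with circles for RA in Cy5 and triangles for RA in Cy3. Open grey symbols are RT1-Ba, which was not well above background. On arrays 1 to 4 the other chains and Cd74 lie between -0.09 and 0.89, and arrays 5 to 8 hold their values of 1.01 to 3.29.

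*RT1-Db1*, the beta chain of RT1-D, had the largest change of the members. With RA in Cy5 its log2 ratio of RA over vehicle was 0.73, 0.72, 1.93 and 3.29 on arrays 1, 3, 6 and 8. With RA in Cy3 it was 0.89, 0.24, 3.05 and 1.66 on arrays 2, 4, 5 and 7. RA was thus the higher channel on all 8 arrays in both dye orders, by most on arrays 5 and 8. The log2 fold change was 1.56 ± 0.39 (SE, n = 4 pairs of arrays; 95% interval 0.63 to 2.49), which is 2.96-fold (adjusted p = 0.280 in limma, from an unadjusted p of 0.00525). A dimmer probe for the same gene gave 0.97 ± 0.31 and an unadjusted p of 0.0167, above 0 on all 8 arrays but short of the threshold.

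*RT1-Da*, the alpha chain that pairs with it, was also higher in RA on all 8 arrays. Its log2 ratio was 0.61, 0.34, 1.55 and 2.47 with RA in Cy5 and 0.36, 0.05, 1.98 and 1.19 with RA in Cy3, in the same order of arrays. The lowest value, on array 4, was close to no difference. The log2 fold change was 1.07 ± 0.30 (SE; 95% interval 0.36 to 1.77), which is 2.10-fold, with an adjusted p = 0.303 in limma (unadjusted p of 0.00877).

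*RT1-Bb*, the beta chain of RT1-B, rose on 2 probes. Its brighter probe had log2 ratios of 0.87, 0.36, 1.15 and 2.74 with RA in Cy5 and 0.55, 0.33, 2.74 and 1.35 with RA in Cy3. RA was the higher channel on all 8 arrays, and arrays 5 and 8 again stood above the rest. The log2 fold change was 1.26 ± 0.34 (SE; 95% interval 0.46 to 2.06), which is 2.40-fold (adjusted p = 0.295 in limma, from an unadjusted p of 0.00737). The dimmer probe gave 1.00 ± 0.26 with an unadjusted p of 0.00639. The alpha chain of RT1-B could not be set beside it: the *RT1-Ba* probe was not well above background in either channel on any array, and its ratios were below 0 on all 4 arrays with RA in Cy5 and above 0 on all 4 with RA in Cy3. RT1 genes are similar in sequence and differ between rat strains, so a probe may bind more than 1 of them or bind the F344 allele poorly.

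*Cd74*, the invariant chain, had log2 ratios of 0.75, 0.07, 1.01 and 2.42 with RA in Cy5 and 0.69, -0.09, 2.39 and 1.28 with RA in Cy3. Arrays 3 and 4 showed almost no difference, and array 4 was the only one of the 8 below 0. The log2 fold change was 1.07 ± 0.33 (SE; 95% interval 0.30 to 1.83), which is 2.09-fold and as large as that of *RT1-Da*. The largest unadjusted p over the 24 ways of pairing the arrays was 0.0132 in limma, with an adjusted p = 0.326, and 22 of the 24 pairings gave a value under 0.01.

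The peptide editors had smaller fold changes than the chains, with smaller standard errors. *RT1-DMa*, the alpha chain of RT1-DM, had log2 ratios of 0.37, 0.75, 1.19 and 1.24 with RA in Cy5 and 0.18, 0.57, 1.24 and 1.16 with RA in Cy3. *RT1-DMb*, its beta chain, had log2 ratios of 0.29, 0.27, 1.32 and 1.32 with RA in Cy5 and 0.37, 0.24, 1.04 and 1.14 with RA in Cy3. Both were higher in RA on all 8 arrays, and arrays 5 to 8 lay within a narrow band for each. The log2 fold change of *RT1-DMa* was 0.84 ± 0.15 (SE; 95% interval 0.48 to 1.20), which is 1.79-fold, with an adjusted p = 0.227 and the lowest unadjusted p of the members, 0.000777 in limma. That of *RT1-DMb* was 0.75 ± 0.18 (95% interval 0.33 to 1.16), which is 1.68-fold, with an adjusted p = 0.268 and an unadjusted p of 0.00364 in limma.

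*Ciita*, the transactivator of the other members, was barely detected. Its probe was well above background in the RA channel on arrays 5 to 8 and in the vehicle channel on array 7, and in neither channel on arrays 1 to 4. Its log2 ratio was -0.22, -0.13, 0.08 and 0.70 with RA in Cy5 and 0.42, 0.42, 1.23 and 0.34 with RA in Cy3. The signs on arrays 1 to 4 followed the dye, as for *RT1-Ba*, and the 4 arrays with RA in Cy5 averaged 0.11 where the other 4 averaged 0.60. The log2 fold change was 0.35 ± 0.14 (SE; 95% interval 0.03 to 0.68), with an adjusted p = 0.423 in limma (unadjusted p of 0.0380). For the other 6 measured members the means of the dye orders differed by 0.34 at most (*RT1-Da*, 1.24 in Cy5 and 0.90 in Cy3).

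**Figure D2:**
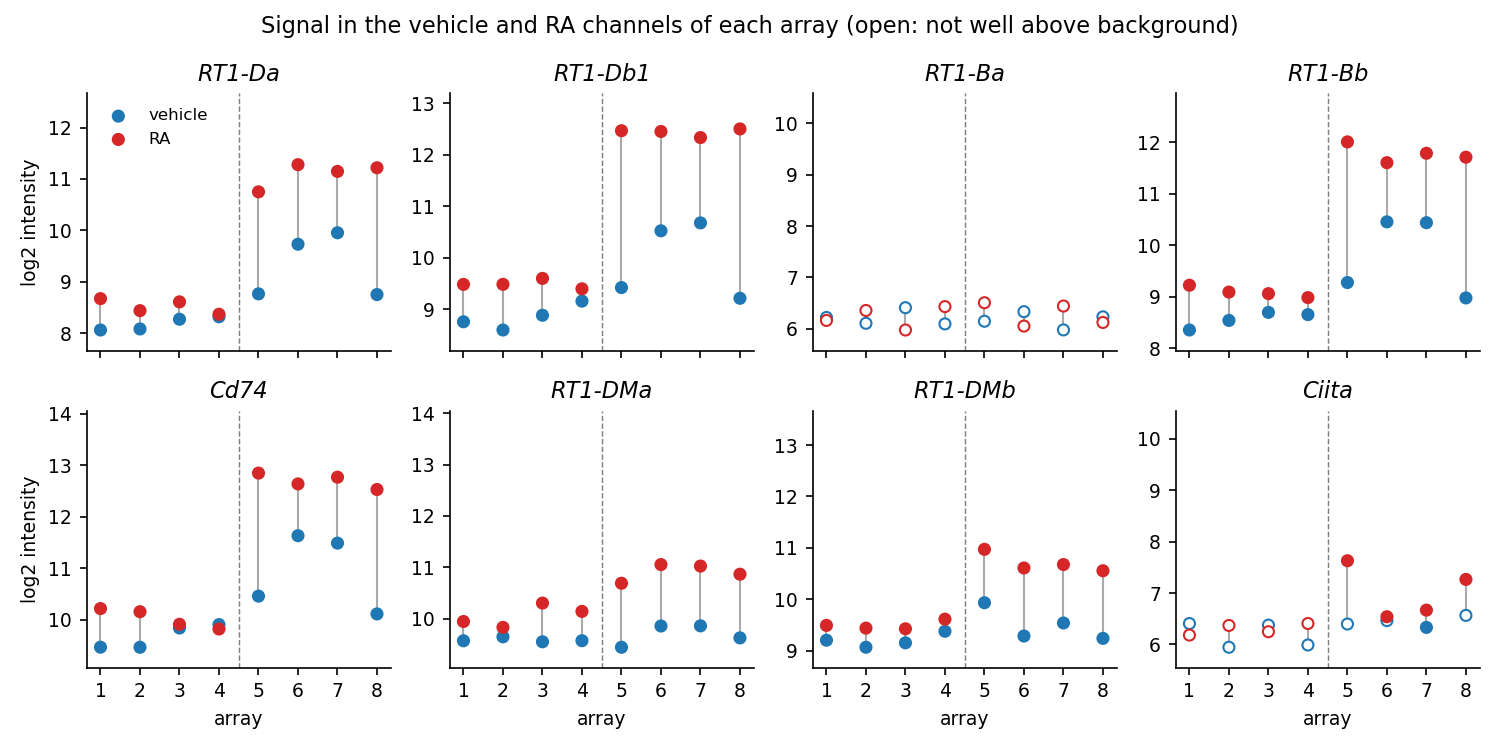
Normalised log2 intensity (y) in the vehicle channel (blue) and RA channel (red) of each array (x), 1 panel per member, with a line joining the channels of an array and open circles where the probe was not well above background. RT1-Da, RT1-Db1, RT1-Bb and Cd74 reach 10.7 to 12.9 in the RA channel of arrays 5 to 8 and 8.37 to 10.2 in that of arrays 1 to 4.

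The channel levels show where the ratios came from, on the log2 intensity scale after normalisation between channels. In the RA channel, *RT1-Db1* lay at 9.48, 9.48, 9.60 and 9.39 on arrays 1 to 4 and at 12.5, 12.5, 12.3 and 12.5 on arrays 5 to 8. In the vehicle channel it lay at 8.75, 8.59, 8.88 and 9.16 on arrays 1 to 4, at 9.42 and 9.21 on arrays 5 and 8, and at 10.5 and 10.7 on arrays 6 and 7. RA levels of arrays 5 to 8 were thus above every vehicle level, while those of arrays 1 to 4 lay within the vehicle range. The smaller ratios of arrays 6 and 7 stood beside higher vehicle levels, not lower RA levels.

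*Cd74* followed the same arrangement. Its RA level was 9.82 to 10.2 on arrays 1 to 4 and 12.5 to 12.9 on arrays 5 to 8. Its vehicle level was 9.46 to 9.90 on arrays 1 to 4, 10.5 and 10.1 on arrays 5 and 8, and 11.6 and 11.5 on arrays 6 and 7. *RT1-DMa* was different in the vehicle channel, where it stayed between 9.45 and 9.86 on all 8 arrays, while its RA level was 9.83 to 10.3 on arrays 1 to 4 and 10.7 to 11.1 on arrays 5 to 8.

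The rows of the slide therefore held different sizes of change. From the first row to the second the mean log2 ratio went from 0.64 to 2.48 for *RT1-Db1*, from 0.34 to 1.80 for *RT1-Da*, from 0.53 to 1.99 for *RT1-Bb* and from 0.36 to 1.78 for *Cd74*. It went from 0.47 to 1.21 for *RT1-DMa*, from 0.29 to 1.20 for *RT1-DMb* and from 0.12 to 0.59 for *Ciita*. Tested as a difference between rows in limma, 4 of the 7 members passed an unadjusted p of 0.01 (*RT1-Da*, *RT1-Db1*, *RT1-DMa* and *RT1-DMb*), where 2.70% of all genes passed in that direction. The difference for *RT1-DMb* was 0.91 ± 0.09 (SE) with an adjusted p = 0.0484, and those for the other 3 had adjusted p values of 0.184 to 0.282. That test rests on 2 pairs of arrays in each row. Whether the rows hold different rats is not stated. The choroid plexus marker *Ttr* had log2 ratios of 1.76 and 1.74 on arrays 1 and 2, and 0.73 and 0.57 on arrays 3 and 4. It had 1.21 and 1.37 on arrays 5 and 8, and -4.48 and -5.11 on arrays 6 and 7. The neuropeptide gene *Pomc* had -0.04 and -0.20 on arrays 1 and 2, and 0.27 and 0.33 on arrays 3 and 4. It had -1.11 and -1.08 on arrays 5 and 8, and 0.06 and 0.09 on arrays 6 and 7. In both genes the close values joined arrays of opposite dye order within a row. The methods state that samples were used again with the dyes exchanged. On such a pairing the rows would hold different rats, but whether these arrays share RNA was not tested. The row of the slide and the rats on it cannot be told apart.

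Within each row the mean log2 ratio of all 7 measured members was above 0. On the first row *Ciita* was not well above background, and *Cd74* lay at 0.07 and -0.09 on arrays 3 and 4. On the first row alone 5 of the 7 members passed the threshold (365 of 15159 genes passed as higher and 90 as lower), among them *RT1-Db1* with a log2 fold change of 0.64 and *RT1-DMa* with 0.47. On the second row alone 6 passed (844 and 131 of all genes), *Cd74* included, at 1.78 with an adjusted p = 0.0324 in limma. The fits of 1 row rest on 2 pairs of arrays each.

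With the slide row as a block, which allows only pairs within a row, 6 of the 7 members passed as higher, beside 873 of 15159 genes as higher and 165 as lower. The adjusted p was then under 0.05 for 5 members in limma: 0.00130 for *RT1-DMb*, 0.00333 for *RT1-DMa*, 0.0133 for *RT1-Da*, 0.0171 for *RT1-Db1* and 0.0450 for *RT1-Bb*. *Cd74* passed the threshold of the methods at an unadjusted p of 0.00148 (adjusted p = 0.0673), and *Ciita* did not, at an unadjusted p of 0.0196. The log2 fold changes are those given above, with SEs of 0.05 to 0.21. If the rows hold different rats, this block also takes out differences between rats, and its p values are then too small for them.

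**Figure D3:**
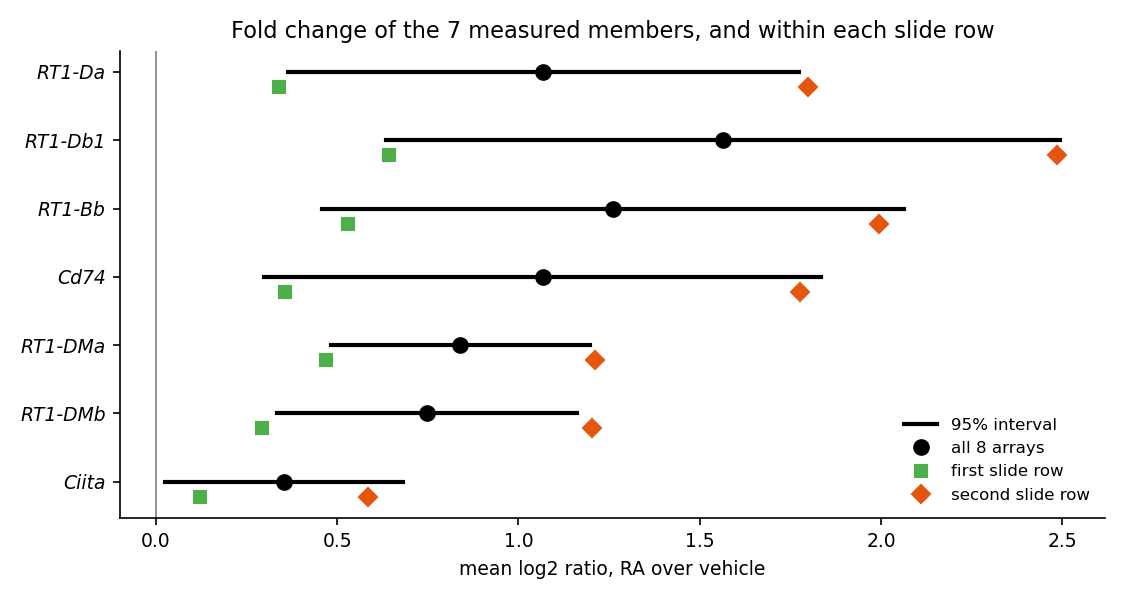
Mean log2 ratio of RA over vehicle (x) of the 7 measured members (y), with the mean of all 8 arrays and its 95% interval in black, the first slide row as green squares and the second as orange diamonds. The mean of every member is above 0 in both rows and higher in the second, but Ciita was not well above background on the first.

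The members also differed among themselves, as a description made after their values had been seen. The mean log2 ratio of *RT1-Da*, *RT1-Db1*, *RT1-Bb* and *Cd74* was above that of the editors by 1.40 on array 5 and 1.45 on array 8. On arrays 1, 2, 6 and 7 it was above by 0.41, 0.34, 0.15 and 0.22, and on arrays 3 and 4 it was below, by -0.14 and -0.27. *RT1-DMa* had the largest ratio of the members on arrays 3 and 4, *RT1-Bb* on array 1 and *RT1-Db1* on the other 5. The 95% intervals of all 7 members overlapped.

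The number of calls moved with the processing and with the arrays used. With plain subtraction of the local background, or with Agilent's own log ratio, 0 of the 7 passed in limma, although all 7 stayed above 0, and with no background correction 4 passed. Of all genes 150, 112 and 506 passed as higher in these fits, in that order, and 22, 104 and 140 as lower. Leaving out 1 array of each dye order gave 1 to 6 calls in 16 fits: 1 without arrays 5 and 6, without 6 and 7 or without 7 and 8, and 3 without 5 and 8 or without 1 and 7. *RT1-DMa* passed in all 16. The number of all genes passed as higher moved as well, from 246 to 587 of 15159, with 246 without arrays 5 and 8, 293 without 5 and 6, 298 without 7 and 8, 318 without 6 and 7 and 495 without 1 and 7.

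Of 34 listed genes of the wider class II pathway, 32 had a probe, of which 8 rose and 0 fell. Of all genes 3.52% passed as higher and 0.792% as lower, and these shares stand beside every list count below. The median of the 29 that were well above background on at least 1 array was 0.16, beside 1.07 for the members. Among the class II chains outside the members, *RT1-DOb*, a chain of the DM inhibitor DO, rose by a log2 fold change of 0.20 ± 0.05 (SE; unadjusted p of 0.00711 in limma), with ratios from 0.02 to 0.36 on the 8 arrays. Its partner *RT1-DOa* was at 0.05 ± 0.07 and well above background in RA on 1 array, and *RT1-Ha* was not well above background on any.

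The factors that bind class II promoters did not pass the test in any case, 0 of 7 with a median of -0.01. The largest values were 0.10 ± 0.05 for *Nfyc* and 0.08 ± 0.05 for *Rfx5*, subunits of the Y box and X box complexes, and -0.04 ± 0.05 for *Rfxank*. Of the 28 promoters with the X and Y cores in sequence, 15 belonged to genes with a probe, and the genes called among them were the 4 members and *RT1-DOb*. Of the other 10, *RT1-CE5*, a class I gene, had the largest value, 0.42 ± 0.13 with an unadjusted p of 0.0122 in limma.

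The list of lysosomal processing and class II disposal, which also holds the ubiquitin ligases *Marchf1* and *Marchf8*, had 3 of 9 genes higher and 0 lower, with a median of 0.21. *Ifi30*, a thiol reductase that opens disulphide bonds of antigens, rose by a log2 fold change of 0.83 ± 0.16 (unadjusted p of 0.00109), with ratios of 0.30 to 0.54 on arrays 1 to 4 and 1.19 to 1.30 on arrays 5 to 8. The cysteine proteases *Lgmn* and *Ctsh* rose by 0.63 ± 0.14 and 0.22 ± 0.06. Of the other cathepsins *Ctsb* was at 0.38 ± 0.13, *Ctsl* at 0.21 ± 0.08 and *Ctss*, the main protease of the invariant chain, at 0.19 ± 0.07, none of which passed.

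Interferon gamma, the main known inducer of *Ciita*, had a probe that was not well above background on any array. Of the 8 genes of its list, *Ifngr1*, a receptor chain, rose by a log2 fold change of 0.26 ± 0.07 and the kinase *Jak2* by 0.19 ± 0.05, and 0 fell. The transcription factor *Irf1* had the largest value, 0.77 ± 0.26 with an unadjusted p of 0.0212 in limma, from 0.01 to 0.37 on arrays 1 to 4 and 0.66 to 2.09 on arrays 5 to 8. *Ifngr2*, the other receptor chain, was at 0.24 ± 0.08. Among 5 co-stimulation genes, *Cd40*, a receptor for T cell help, rose by 0.69 ± 0.15 and *Icam1*, an adhesion molecule, by 0.65 ± 0.12, both on all 8 arrays, while *Cd86* was at 0.16 ± 0.09 and *Cd274* at 0.15 ± 0.09.

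Class I presentation, which loads peptides from the cytosol, had 8 of 10 genes higher and 0 lower, with a median log2 fold change of 0.52. The immunoproteasome subunits *Psmb9* and *Psmb8* rose by 1.11 ± 0.27 and 1.05 ± 0.27, and *Psmb10* by 0.58 ± 0.13. Of the peptide transporter, *Tap2* rose by 0.52 ± 0.09, whereas *Tap1*, at 0.61 ± 0.19, had an unadjusted p of 0.0138 and did not pass. The heavy chains *RT1-A2*, *RT1-CE16* and *RT1-CE2* rose by 0.53 ± 0.14, 0.49 ± 0.13 and 0.48 ± 0.13, and *Tapbp*, the loading chaperone, by 0.25 ± 0.07. *B2m*, the light chain, was at 0.45 ± 0.15 with an unadjusted p of 0.0211 in limma.

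**Figure D4:**
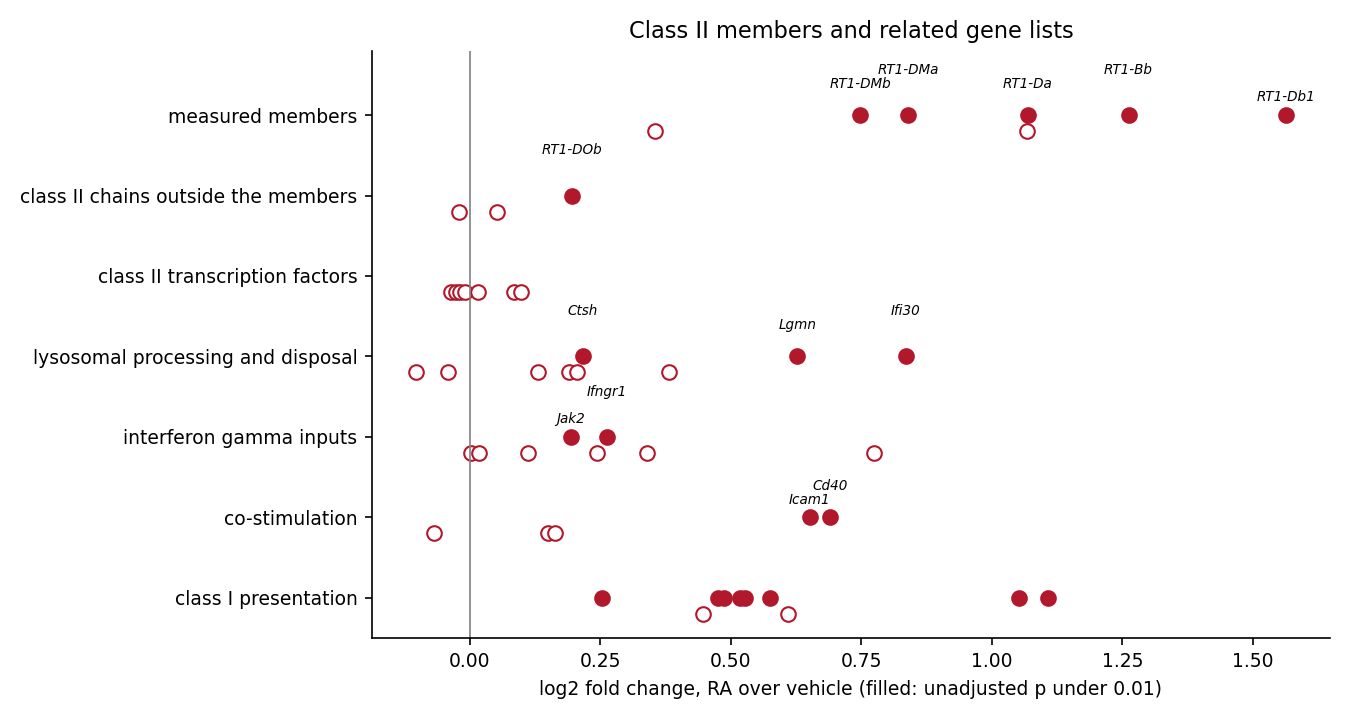
Log2 fold change of RA over vehicle (x) of the measured members and of 6 related gene lists (y), 1 circle per gene, filled at an unadjusted p under 0.01 in limma and otherwise open and drawn slightly lower (Cd74 lies below RT1-Da). RT1-Ha, Ifng and Cd80, close to 0, were not well above background on any array. Names are printed for the filled genes except in the class I list. The members reach 1.56, the transcription factors lie between -0.04 and 0.10, and the class I genes between 0.25 and 1.11.

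The genes whose ratios over the 8 arrays were most like the mean of the 6 bright members were *Olr1* (Pearson r = 0.991), *Ptpn6* (0.990), *Ifi47* (0.989), *Septin6* (0.988) and *Psmb8* (0.987), out of 10871 genes well above background on all arrays. The arrays share slide rows, so these values are a description. *Ptpn6*, a tyrosine phosphatase of blood cells and microglia, rose by a log2 fold change of 1.01 ± 0.18 and had ratios of 0.49 to 0.67 on arrays 1 to 4 and 1.14 to 1.74 on arrays 5 to 8. *Ifi47*, an interferon-inducible GTPase, was at 0.92 ± 0.29 with an unadjusted p of 0.0158 in limma, and its ratios were 2.01 and 2.26 on arrays 5 and 8 against 1.14 and 0.93 on arrays 6 and 7.

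Markers of the cell types that carry class II moved in part with the members. Of 8 markers of monocytes and macrophages with a probe, 5 rose and 0 fell, where 3.52% of all genes passed as higher and 0.792% as lower. Their median ratio on an array ran from 0.24 to 0.83. Among their defining markers the lysozyme gene *Lyz2* rose by a log2 fold change of 1.30 ± 0.24, while *Cd163* was at 0.17 ± 0.05 and *Mrc1*, well above background on only 2 arrays in each channel, at 0.06 ± 0.05. The other 4 that rose were *Cd14* by 1.43 ± 0.21, *Cd68* by 1.07 ± 0.29, *Adgre1* by 0.71 ± 0.07 and *Lyve1* by 0.34 ± 0.09. *Cd68* was below 0 on arrays 3 and 4, at -0.24 and -0.14. *Lyz2* had ratios of 0.40 to 0.83 on arrays 1 to 4 and 1.82 to 2.00 on arrays 5 to 8. The summed level of the list was 12.6 to 13.6 in vehicle and 13.3 to 15.4 in RA on the log2 scale.

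Of 9 microglia markers 2 rose and 1 fell, with array medians from -0.13 to 0.16 and summed levels of 14.1 to 14.7 in vehicle and 14.2 to 14.9 in RA. *Aif1* and *Itgam*, which macrophages also express, rose by log2 fold changes of 0.88 ± 0.15 and 0.87 ± 0.18. *Cx3cr1* was at 0.08 ± 0.06, and *Tmem119* fell by 0.52 on the log2 scale. The ratios of *Tmem119* were -0.06 and -0.02 on arrays 1 and 2 and ran from -0.78 to -0.57 on the others. Of 6 dendritic cell markers *Batf3* rose, and it was well above background on 7 arrays in RA and 2 in vehicle. *Zbtb46* was at 0.01 ± 0.05 and *Clec9a* at 0.38 ± 0.12 with an unadjusted p of 0.0132 in limma. *Clec9a* was well above background on only 3 arrays in RA and 1 in vehicle, and *Xcr1* on none. The list's array medians were 0.03 to 0.53, and its summed levels 8.90 to 9.04 in vehicle and 8.94 to 9.33 in RA.

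Of 5 B cell markers none passed in either direction, with array medians of -0.07 to 0.20 and summed levels of 9.46 to 10.4 in vehicle and 9.56 to 10.4 in RA. Of 8 T cell markers none passed, with array medians of 0.03 to 0.45 and summed levels of 9.76 to 9.89 in vehicle and 9.78 to 10.6 in RA. *Cd3g* was at 0.70 ± 0.22, *Cd3d* at 0.27 ± 0.09 and *Cd3e* at 0.12 ± 0.08. *Cd3g* was well above background on 6 arrays in RA and 2 in vehicle, and *Cd3e* on 2 in RA and none in vehicle. The ratios of *Cd3g* were 0.04 to 0.19 on arrays 1 to 4 and 1.15 to 1.54 on arrays 5 to 8. The part of these cell types in the class II result was not tested.

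Markers of the choroid plexus and of hypothalamic neurons differed between arrays as well. Of 11 choroid plexus markers none passed in limma, but their median ratio was low on arrays 6 (-1.38) and 7 (-1.57), with 0.07 to 0.49 elsewhere. Their defining markers *Ttr*, *Folr1* and *Kl* were at -0.28 ± 0.98, -0.14 ± 0.33 and -0.12 ± 0.27, and the summed levels were 11.0 to 17.9 in vehicle and 11.1 to 17.1 in RA. Without arrays 6 and 7 the median of the members was 0.97, and 1 of 7 passed, beside 318 of all genes as higher and 67 as lower. The hypothalamic neuropeptide genes had median ratios of -0.59 (array 5) and -0.64 (array 8), with -0.05 to 0.29 elsewhere. *Agrp*, *Npy* and *Pomc* were at -0.29 ± 0.18, -0.03 ± 0.10 and -0.21 ± 0.20, 1 of 11 genes (*Cartpt*) fell, and the summed levels were 16.6 to 17.7 in vehicle and 16.9 to 17.4 in RA. Without arrays 5 and 8 the median of the members was 0.68, and 3 of 7 passed, beside 246 and 74 of all genes.

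Of 7 astrocyte markers 2 fell and 0 rose, with array medians of -0.30 to -0.02 and summed levels of 15.95 to 16.06 in vehicle and 15.83 to 16.10 in RA. *Aqp4*, *Aldh1l1* and *Slc1a2* were at 0.07 ± 0.07, -0.18 ± 0.09 and 0.00 ± 0.06. Of 7 endothelial markers none passed, with array medians of -0.16 to 0.05 and summed levels of 13.0 to 13.2 in vehicle and 12.9 to 13.0 in RA. *Pecam1*, *Cldn5* and *Cdh5* were at 0.00 ± 0.06, -0.14 ± 0.06 and -0.01 ± 0.06. The part of these differences in the class II result was not tested.

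**Figure D5:**
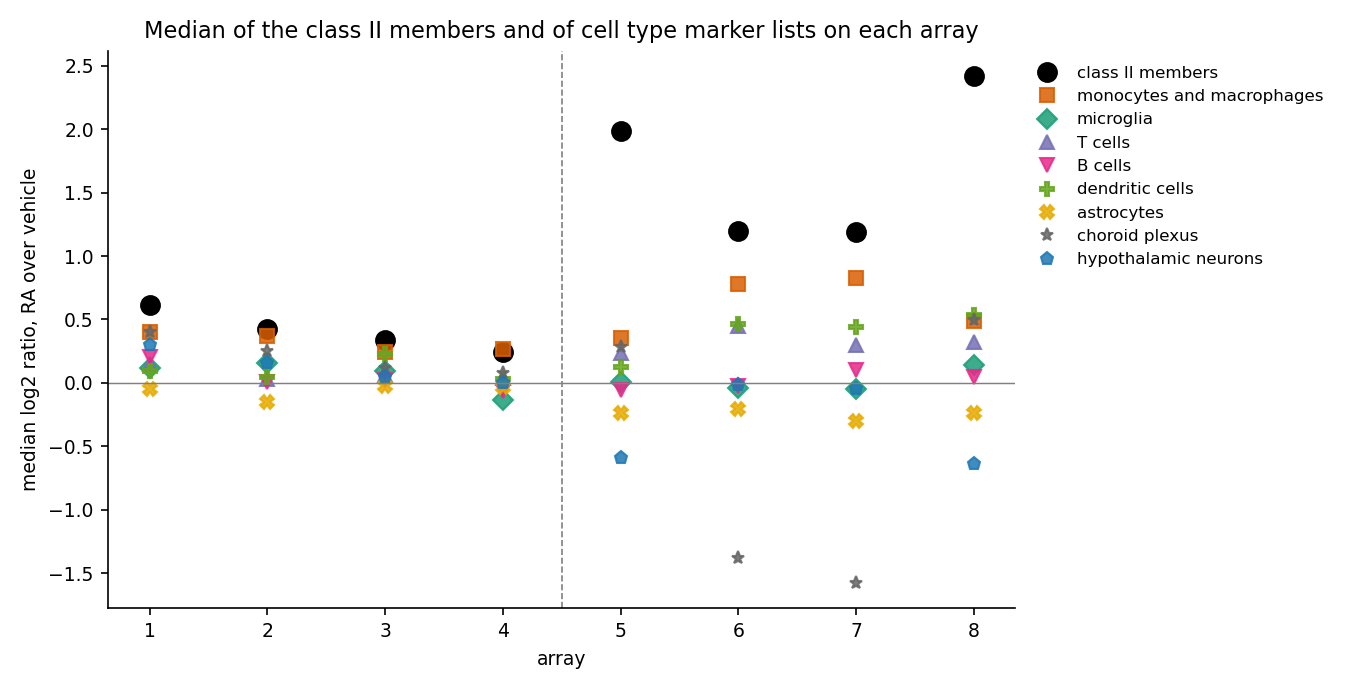
Median log2 ratio of RA over vehicle (y) of the 7 measured class II members (black circles) and of 8 marker lists on each array (x). The class II median runs from 0.24 on array 4 to 2.42 on array 8, the macrophage median from 0.24 to 0.83, and the choroid plexus median falls to -1.57 on array 7.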

How the data were processed

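The authors deposited the scanner output of 8 two-colour arrays, which gives linear intensity values of both dyes for every spot, and Agilent's log10 ratio. A series-wide table of log2 ratios that the authors normalised with limma was deposited as well, and its direction had already been set as RA over vehicle (r = 0.932 to 0.980 with the ratios computed here). Their methods name loess normalisation, the averaging of repeated probes and a block for dye-swaps.

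The ratios were recomputed in R 4.3.3 (limma 3.58.1). Median signals were corrected by normexp with an offset of 50, outlier spots were dropped, loess was applied within arrays and spots of a probe were averaged. Channel levels were also scaled between arrays (Aquantile). Arrays of opposite dye order were averaged into 4 pairs, the fit was repeated for all 24 pairings, and a probe took its largest p and the SE of that fit. Benjamini-Hochberg adjustment covered 30367 probes. Probes were named through transcript accessions of GRCr8 (18006 matched), from which no array coordinates were taken. Summed levels are the log2 of the added intensities of a list. Precision is limited by the number of arrays. A probe was well above background where Agilent marked at least 0.5 of its spots.

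The members, the gene lists and the tests were chosen with earlier results of these data known. The text names the members, every related gene called and up to 3 others per list, 5 genes most like the members, and the first 3 markers of each list, apart from some that are not reported here; *Tmem119*, *Batf3*, *Clec9a*, *Xcr1*, *Cd14*, *Cd68*, *Adgre1*, *Lyve1*, *Marchf1*, *Marchf8*, *Cartpt* and *RT1-CE5* were named after their values were seen. The fit was also run on simulated data that held no slide row difference, and the outcome is not given here. Alternatives covered background correction, scaling, filters, the model, the slide rows, the dye orders and leaving out arrays.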

Additional observations from a re-analysis of the deposited data

Results flagged for a closer look

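On array 5 the log2 ratio of *Ciita* was 1.23, while the other 3 arrays with RA in Cy3 gave 0.34 to 0.42. It was the only value far from the others of its dye order among 14 groups of 4 examined, where chance flags about 1 in 20. The probe was well above background in the RA channel of that array and not in its vehicle channel.

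The difference between the slide rows (second minus first) was tested in limma and passed an unadjusted p of 0.01 for 4 members. It was 1.84 for *RT1-Db1*, 1.46 for *RT1-Da*, 0.91 for *RT1-DMb* and 0.74 for *RT1-DMa*, on the log2 scale.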

How the results depend on the processing

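All measured members stayed above 0 in every alternative, 34 for each and 33 for *Ciita*, which has no value among the probes well above background on all arrays. The threshold was passed in 32 of the 34 by *RT1-DMa*, in 28 each by *RT1-Db1* and *RT1-DMb*, in 25 by *RT1-Bb*, in 23 by *RT1-Da*, in 12 by *Cd74* and in 2 of 33 by *Ciita*. The alternatives include a fit that takes 8 arrays as independent though some may share RNA. They also include the pairing picked because it called most, and the p values of both can be too small. Of the 7 members 5 passed in the reported fit, against 0 with plain subtraction, 0 with Agilent's own log ratio, 3 in the authors' normalised table and 3 of 6 with only probes well above background on all arrays. It was 6 with the slide row as a block, with pairs as a random block and with 8 independent arrays, and 7 with RA in Cy3 only and for whichever pairing called most. Of the other pathway genes 8 passed, against 1 with plain subtraction, 0 with Agilent's own log ratio, 13 with 8 independent arrays, 15 in the pairing with the most calls and 4 on the first row only. Leaving out 1 array of each dye order gave 1 to 6 members and 3 to 9 other pathway genes. Over all genes, 534 higher and 120 lower became 112 and 104 with Agilent's own log ratio, and 150 and 22 with plain subtraction. In these fits the log2 fold change of *RT1-Db1* was 1.63 and 1.67, and the cause of the lost calls was not tested. The authors' table gave 493 genes higher and 136 lower, and the first row only gave 365 and 90. The filter on probes well above background gave 407 and 101 of 10878 genes. The slide row block gave 873 and 165, the random block 833 and 225, and RA in Cy3 only 711 and 523. Treating 8 arrays as independent gave 1067 and 442, and choosing the pairing by its calls gave 1314 and 577. The slide row difference was called for 4 members under no background correction and in the authors' normalised table too. Low signal left *RT1-Ba* without a value and *Ciita* near background.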
